A study of Mus musculus with 24 samples.

Results

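The effect of the rocaglate CR-31 on polysome-associated mRNA was examined in KP organoids, mouse pancreatic ductal tumour cells cultured in matrix. The comparison holds the 6 libraries, of 24 in the series, that the labels give as polysome-associated mRNA of tumour organoids, with 3 from vehicle-treated and 3 from CR-31-treated cultures, paired by replicate number. Across these libraries 11438 genes had counts that could be tested, of 19895 entries in the deposited table. The tumour organoids carried Pdx1-Cre and the mutant allele Trp53+/LSL-R172H, so that Cre acted in cells of the pancreatic lineage, and both groups shared their genotype and were cultured without EGF and N-acetylcysteine. The CR-31 group received 10 nM of the drug for 1 h and the vehicle group DMSO, both with cycloheximide in the last 5 min, and the polysome libraries hold mRNA from the sucrose gradient fractions with at least 3 ribosomes. The N organoids of the series, grown from normal pancreatic ducts, gave 6 further polysome libraries that share the fit. The labels do not say whether replicates came from separate animals or cultures, so p-values measure only the spread between these samples, which may be technical.

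Translation of most mRNAs begins when eIF4F binds the cap. Its subunit eIF4A is an RNA helicase that unwinds the 5′ end so that the small ribosomal subunit can load and scan. Rocaglates lock eIF4A onto RNA, purine-rich stretches above all, and so block its use in initiation. An mRNA that loses ribosomes moves out of the heavy polysome fractions, and its share of the reads from those fractions falls. Because each library is scaled to its own total, the values below are shares of the heavy polysome pool, and a loss of ribosomes that is common to all mRNAs leaves no trace in them. In bulk material, fewer cells of a type and less RNA per cell cannot be told apart either.

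All 6 libraries were deep, with 87537853 to 193500321 counted reads, and had the keratins and adhesion genes of duct epithelium, with 6480 to 10400 CPM (counts scaled to the total of their library) summed over 12 markers. The polysome library of vehicle replicate 3 stood apart. Its 12 pan-leukocyte markers summed to 47.4 CPM, against 2.52 to 4.82 CPM in the other 11 KP libraries, polysome-associated and total. Lyz2, the lysozyme of myeloid cells, had 1854 counts there and 1 to 10 in each of the other 5 polysome libraries of KP, and Ptprc, which encodes the leukocyte antigen CD45, had 240 counts against 0 to 6. All 12 were higher there than in any other KP library, as were 12 of 13 markers of macrophages and other myeloid cells, which summed to 59.5 CPM against 3.96 to 5.92 CPM. The other, Cd14, a receptor for lipopolysaccharide, was at 167 CPM there and 78.8 to 215 CPM in the other 11. The total mRNA of the same lysate had 2.55 CPM of the pan-leukocyte markers. In all, 165 entries were above 4 times their highest value in any other KP library, where each of the other 11 libraries had 0 to 2 such entries. The call counts, the gene lists and the genes whose value this library decides are therefore given with and without it, and its replicate number is called pair 3.

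With CR-31, 949 genes rose and 1264 fell in polysome-associated mRNA, at an adjusted p under 0.25 in edgeR's quasi-likelihood test with the pair as a block. These are 8.3% and 11.1% of the genes tested, and 19.3% together. The threshold is that of the study and is a lenient one, since it accepts an expected false discovery share of 0.25. The lowest adjusted p was 0.189, so 0 genes passed 0.05, while 2254 genes had an unadjusted p under 0.05 (8.49% of those tested higher and 11.2% lower) and DESeq2 called 2649 genes at 0.25. The changes were moderate, with a median log2 fold change of 0.53 among the genes that rose and -0.48 among those that fell. A log2 fold change of 1 or more was reached by 35 of the genes that rose, and one of -1 or less by 41 of those that fell. Of the called genes, 940 were higher and 1222 lower in all 3 pairs, beside 28.9% and 30.6% of all tested genes that were higher or lower in all 3. The 3 vehicle and 3 CR-31 libraries did not overlap for 513 of the genes that rose and 702 of those that fell, beside 8.94% and 10.5% of all genes tested, or 19.5% together, with groups that did not overlap in that direction.

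The pairs differed in size. The median absolute log2 ratio of CR-31 to vehicle was 0.257 in pair 1, 0.343 in pair 2 and 0.180 in pair 3. Across genes, Pearson's r between the ratios was 0.579 for pairs 1 and 2, 0.274 for pairs 1 and 3 and 0.312 for pairs 2 and 3, a description over 11438 genes that are not independent replicates. Without vehicle replicate 3, which leaves 2 complete pairs to the block, the same test called 0 genes, with a lowest adjusted p of 0.268. The count was likewise 1 without pair 1, 0 without pair 2 and 0 without the block, with 742, 464 and 406 genes at an unadjusted p under 0.05. In the fit without vehicle replicate 3, 1879 genes had an unadjusted p under 0.05, 7.67% of those tested higher and 8.76% lower. All of the 949 genes that rose kept their direction then, as did 1263 of the 1264 that fell. The exception was Sirpa, which encodes an inhibitory receptor of myeloid cells, with a log2 fold change of -2.10 with the library and 0.40 without it. An unadjusted p under 0.05 in edgeR's test without the library was reached by 721 of the genes that rose and 847 of those that fell. Pairs 1 and 2 also made the calls, so the kept directions and these counts are no independent support. The fit of these calls shares its spread with the N organoids, where replicate 3 gave a median absolute ratio of 0.454, against 0.206 and 0.175 in replicates 1 and 2. In a fit of the KP libraries alone, edgeR called 3093 genes higher (27%) and 3024 lower (26.4%), or 53.5% of all genes, on 2 residual degrees of freedom. Without vehicle replicate 3 that fit called 3451 higher (30.2%) and 3203 lower (28%), or 58.2%, on 1. Among these were 945 of the 949 genes that rose and 1235 of the 1264 that fell, again from libraries that made the calls. The labels place pairs 1 and 3 each within 1 sequencing lane and split pair 2 between lanes, and with the lane as a term beside the pair edgeR called 0 genes, with 252 at an unadjusted p under 0.05. That term takes up the contrast of pair 2 and leaves the effect to pairs 1 and 3, so this 0 says nothing of the lane. Upper-quartile scaling moved the split between directions, with 1114 genes higher and 977 lower.

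The 15 genes that rose in all 3 pairs with the largest ratio in their weakest pair were at least 1.86-fold and at most 2.35-fold higher with CR-31. Aifm1, which encodes a flavoprotein of the mitochondrial intermembrane space, had 19.6, 19.5 and 24.8 CPM in vehicle replicates 1, 2 and 3 and 55.7, 42.8 and 48.6 CPM in the CR-31 libraries. The lowest CR-31 library thus lay above the highest vehicle library, and its log2 fold change was 1.20 ± 0.36 (SE, adjusted p = 0.192). Tpx2, a microtubule factor that activates Aurora A at the spindle, had 47.6, 21.8 and 50.7 CPM with vehicle and 119, 61.3 and 93.1 CPM with CR-31. Replicate 2 was the lowest library of both groups, yet the groups did not overlap, and the log2 fold change was 1.23 ± 0.27 (adjusted p = 0.192). Hk2, the hexokinase that commits glucose to glycolysis, had 20.1, 14 and 14.9 CPM with vehicle and 37.2, 46.7 and 26.6 CPM with CR-31 (log2 fold change 1.15 ± 0.27, adjusted p = 0.192). Cltc, the clathrin heavy chain, went from 110, 84.7 and 97.5 CPM to 209, 226 and 166 CPM, again with no overlap between groups, a log2 fold change of 1.03 ± 0.27 (adjusted p = 0.192).

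Tjp1, the tight junction scaffold ZO-1, had a log2 fold change of 0.97, and Mpp5, the Pals1 scaffold of the apical Crumbs complex, one of 1.20. Amot, an angiomotin that binds junctions and YAP, had 11.5, 5.96 and 13.9 CPM with vehicle and 22.7, 20.7 and 24.7 CPM with CR-31 (log2 fold change 1.20). Prom1, the apical membrane protein CD133, had 357, 469 and 417 CPM with vehicle and 781, 1033 and 749 CPM with CR-31, so that every CR-31 library was above every vehicle library. A pair of mitochondrial factors rose as well, Mtif2, the initiation factor of mitochondrial translation, at a log2 fold change of 1.02, and Yme1l1, an inner membrane protease, at 1.17. Peg3, Iqgap2, Nol8 and Naa15 were also among them, with log2 fold changes of 0.91 to 1.20. All 15 stayed higher without vehicle replicate 3, at 1.00 to 1.44, and 14 of them then had an unadjusted p under 0.05 in edgeR's test. Their sign follows from the choice of genes higher in all 3 pairs, and these p-values reuse libraries that chose them.

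The 15 genes that fell in all 3 pairs, chosen in the same way by their weakest pair, were lower by 0.60 to 1.56 on the log2 scale. All 15 stayed lower without vehicle replicate 3, at -1.85 to -0.55, and 8 of them then had an unadjusted p under 0.05 in edgeR's test. Here too the sign follows from the choice of genes, and the p-values reuse libraries that chose them. Ssbp4, which encodes a single-stranded DNA binding protein, had 336, 341 and 334 CPM with vehicle and 210, 187 and 221 CPM with CR-31. The vehicle libraries were close to each other and all above the CR-31 libraries, and the log2 fold change was -0.71 ± 0.24 (adjusted p = 0.194). Abhd17a, a hydrolase that takes palmitate off proteins, had 281, 365 and 294 CPM with vehicle and 171, 199 and 190 CPM with CR-31 (log2 fold change -0.74 ± 0.26, adjusted p = 0.196). Cenpb, the protein of the centromeric CENP-B box, had 684, 902 and 797 CPM with vehicle and 462, 520 and 524 CPM with CR-31 without overlap (log2 fold change -0.66 ± 0.24, adjusted p = 0.204).

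Mdfi, an inhibitor of myogenic transcription factors, fell by almost the same ratio in each pair although its level differed between them, from 6.43, 17.1 and 4.69 CPM to 3.80, 10.4 and 2.90 CPM. Its groups therefore overlapped, and the log2 fold change with the pair as a block was -0.72 ± 0.19 (adjusted p = 0.192). Without the block and without vehicle replicate 2 its value was 0.04. Abhd8, Hcn2, a channel of the hyperpolarization-activated family, Kctd17, Rnpepl1, Cyb5rl, Etnk2, Azin2 and the ubiquitin ligase Ube3b fell by 0.60 to 0.79 on the log2 scale. The values of a further pair of genes are uncertain. Hist1h2af belongs to a family of near-identical histone genes, and its level was 51.6 and 18.8 CPM in replicate 2 against 645 to 1280 CPM in replicates 1 and 3. Gm5803 is a predicted gene that was not matched to a coding sequence, and its ratio was the largest in pair 2, where it went from 38.4 to 4.55 CPM.

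**Figure D1:**
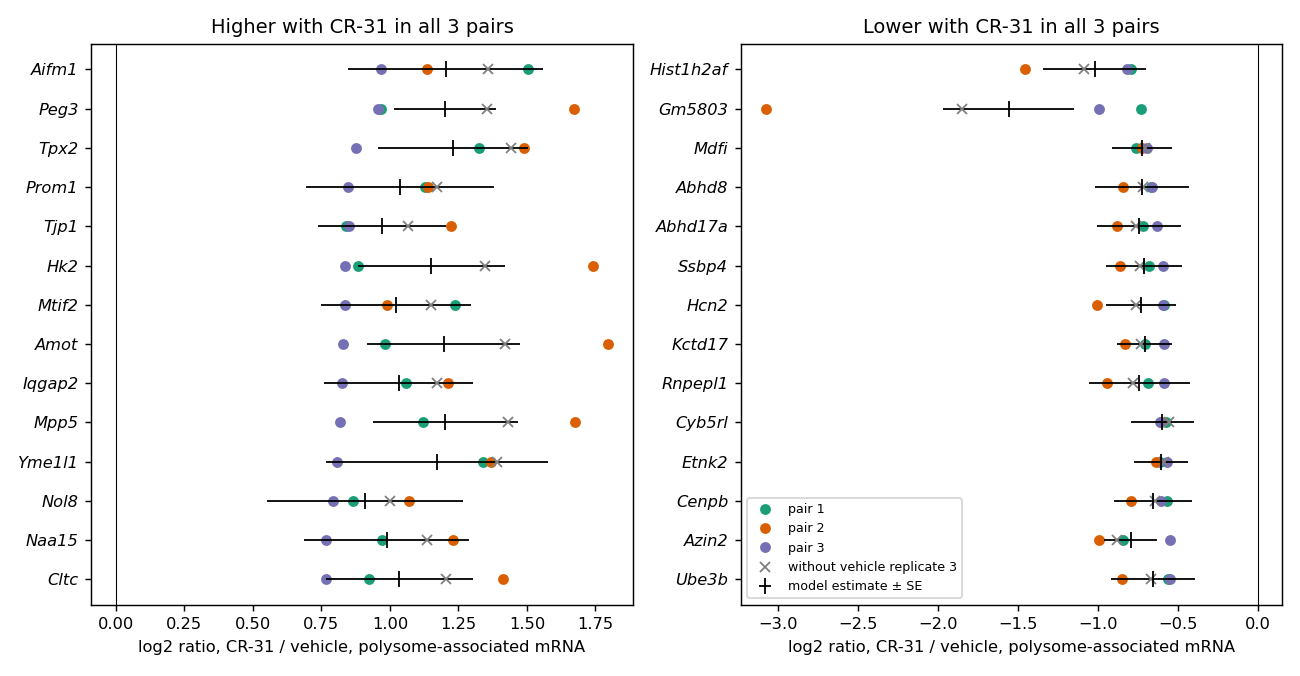
The log2 ratio of CR-31 to vehicle in polysome-associated mRNA of KP organoids is plotted on the horizontal axis for 14 of the 15 genes that rose (left) and 14 of the 15 that fell (right) with the largest ratio in their weakest pair, by which they are ordered. Coloured dots are the 3 pairs, black marks are the model estimate with its SE, and grey crosses are the estimate without vehicle replicate 3; all dots of a gene lie on 1 side of 0, and pair 3 is nearest to 0 for all genes on the left but Tjp1.

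The first 30 coding bases of 3 genes that rose and 3 that fell are shown because the 2 directions differed in their codons, as described further on. They are the leading genes of each direction that have an annotated coding sequence and do not belong to the histone family, and were read from GENCODE M21 transcripts on GRCm38, sense strand, 5′ to 3′. Capitals mark a G or C at the last base of a codon, called GC3 below, beginning with the start codon. Aifm1, Peg3 and Tpx2 rose and had 6, 7 and 4 such bases in these 10 codons. Mdfi, Abhd8 and Abhd17a fell and had 7, 7 and 10, so these first codons overlap between the directions. Over the whole coding sequence the share was 45.8%, 51.9% and 53.1% in the first group and 70.5%, 72.3% and 76.5% in the second.
Aifm1: atGttCcgGtgtggaggCctGgcGggtgct
Peg3: atGtaCcatcaCgaagaCgaCacCaaCagt
Tpx2: atGtcacaagtCcctactacttaCtctttC
Mdfi: atGtcCcaGgtGagCggtcaGtgCccttct
Abhd8: atGacCtcagaacaCacCatGctGactggG
Abhd17a: atGaaCggCctGtcGgtGagCgaGctCtgC

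**Figure D2:**
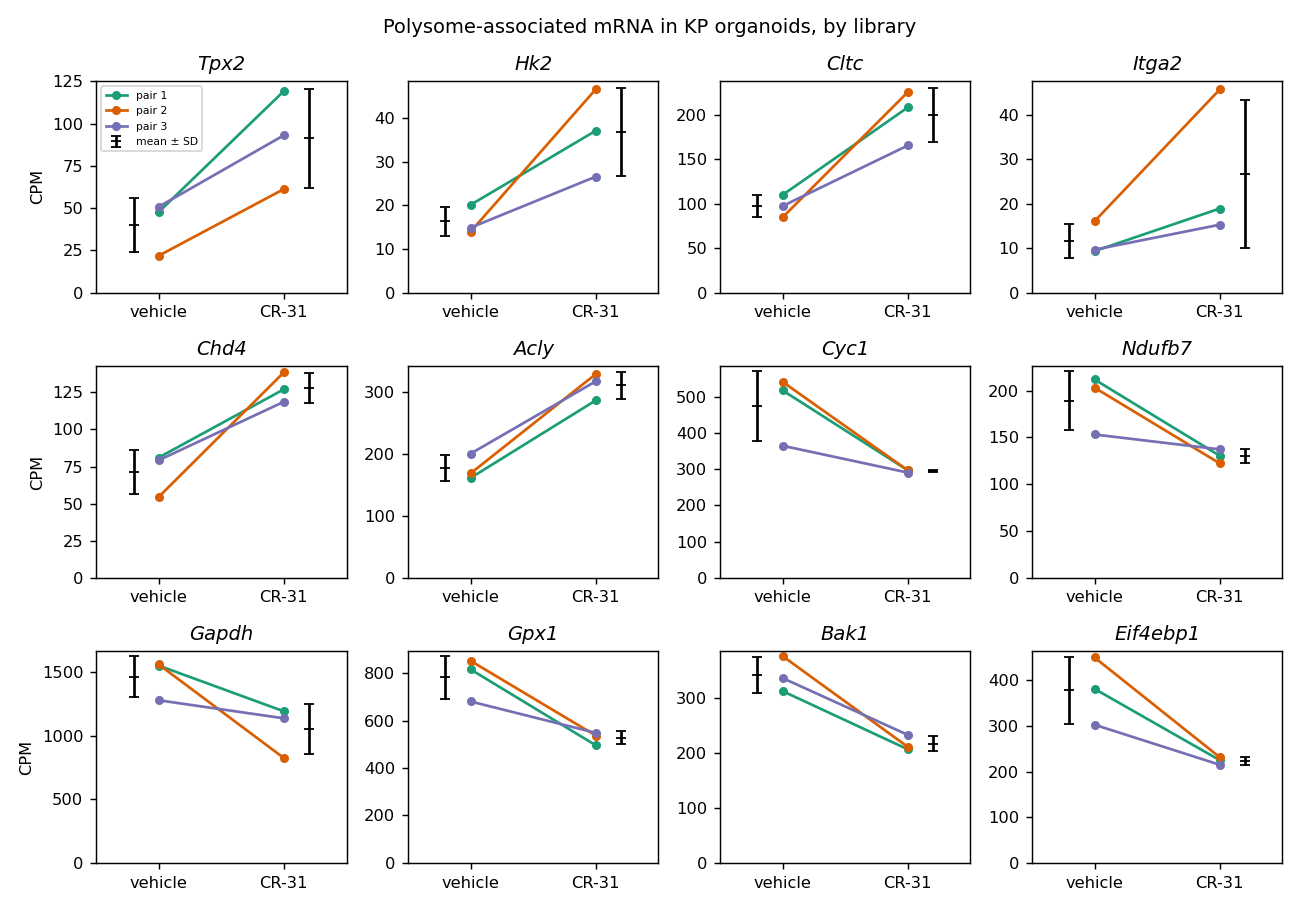
The level of polysome-associated mRNA, in CPM on a linear axis from 0, is plotted for 12 genes in the 3 vehicle and 3 CR-31 libraries of KP organoids, with lines joining each pair and black bars for the mean ± SD (n = 3). The first 6 genes rose and the last 6 fell in every pair; the lines of Cyc1 and Ndufb7 are flatter in pair 3, whose vehicle library is the lowest of the 3.

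Subunits of the respiratory chain were mostly on the lower side. Of 32 complex I subunits tested, 8 fell, 1 rose and 23 did not pass, with a median log2 fold change of -0.34 against -0.02 over all genes. Of 38 subunits of complexes II to V, 7 fell and 0 rose, with a median of -0.29. Called in either direction were 28.1% of the first list and 18.4% of the second, beside 19.3% of all genes, of which 11.1% fell. Ndufb7, an accessory subunit of complex I, had 212, 203 and 153 CPM with vehicle and 130, 122 and 137 CPM with CR-31. All CR-31 libraries were below all vehicle libraries, and the log2 fold change was -0.53 ± 0.18 (adjusted p = 0.195). Ndufc1, another accessory subunit, had 175, 156 and 146 CPM with vehicle and 109, 104 and 114 CPM with CR-31 (log2 fold change -0.54 ± 0.18, adjusted p = 0.196). Cyc1, the cytochrome c1 of complex III, had 518, 542 and 365 CPM with vehicle and 297, 297 and 291 CPM with CR-31, the largest fall among subunits of complexes II to V at -0.67 ± 0.16 (adjusted p = 0.192). The 1 subunit that rose was Ndufs1, the largest iron-sulfur subunit of complex I. It had 32.6, 37.9 and 31.5 CPM with vehicle and 70.2, 60.1 and 56.2 CPM with CR-31 (log2 fold change 0.87 ± 0.29, adjusted p = 0.193).

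The lower values came from pairs 1 and 2. The median log2 ratio of complex I subunits was -0.50 in pair 1, -0.54 in pair 2 and 0.04 in pair 3, and that of complexes II to V was -0.46, -0.43 and 0.04. Sdhb, the iron-sulfur subunit of complex II, went from 184 to 116 CPM in pair 1, from 203 to 123 CPM in pair 2 and from 109 to 131 CPM in pair 3. Its log2 fold change of -0.38 ± 0.21 did not pass (adjusted p = 0.334), and was -0.66 without vehicle replicate 3. Ndufa3 passed, with 238, 246 and 190 CPM with vehicle and 161, 153 and 179 CPM with CR-31 (log2 fold change -0.45 ± 0.17, adjusted p = 0.220). Without vehicle replicate 3 the medians of the 2 lists were -0.42 and -0.42, and 16 of the 32 and 11 of the 38 subunits were lower at an unadjusted p under 0.05 in edgeR's test, beside 8.76% of all genes tested.

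Proteins of the mitochondrial ribosome, which translates the mitochondrial genome, were also mostly lower. Of 69 tested, 23 fell (33.3%, beside 11.1% of all genes) and 0 rose, with a median of -0.25, and the medians of the pairs were -0.34, -0.33 and -0.10. Mrpl12, a protein of its large subunit, had 415, 360 and 258 CPM with vehicle and 255, 214 and 208 CPM with CR-31 (log2 fold change -0.59 ± 0.17, adjusted p = 0.192). Mrpl10 had 163, 180 and 136 CPM with vehicle and 121, 130 and 108 CPM with CR-31 without overlap (log2 fold change -0.41 ± 0.15, adjusted p = 0.204). Mrpl28 was lowest among them at -0.66, although its ratio in pair 3 was -0.16. By contrast, of 72 proteins of the cytosolic ribosome 1 fell (1.39%) and 0 rose, with a median of -0.09. Without vehicle replicate 3 the medians were -0.32 for the mitochondrial and -0.13 for the cytosolic proteins. In that fit 20 and 2 were lower at an unadjusted p under 0.05 in edgeR's test, beside 8.76% of all genes. The 1 cytosolic protein called was Rpl36, at -0.43 ± 0.18 (adjusted p = 0.242), which has processed copies in the genome that can take its reads. Whether the cytosolic and mitochondrial proteins differ was not tested.

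Eif4a1, the main target of rocaglates, did not pass. It had 1371, 776 and 1223 CPM with vehicle and 1402, 864 and 1251 CPM with CR-31 (log2 fold change 0.07 ± 0.16, adjusted p = 0.831). Of 17 members and regulators of eIF4F tested, 4 fell and 1 rose, beside 11.1% and 8.3% of all genes, and the median was -0.09, or -0.03 without vehicle replicate 3. Eif4ebp1, which encodes the repressor 4E-BP1 that holds eIF4E away from eIF4G, had 381, 450 and 303 CPM with vehicle and 225, 231 and 215 CPM with CR-31. Its vehicle libraries varied and its CR-31 libraries were close together below them, at a log2 fold change of -0.74 ± 0.25 (adjusted p = 0.194). Mknk2, a kinase of eIF4E, fell by 0.51, Eif4h, a cofactor of eIF4A, by 0.39 and Eif4e3, at under 1 CPM, by 0.81 on the log2 scale. Eif4g3, a scaffold of the complex, rose by 0.50 ± 0.15 (adjusted p = 0.192).

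Among 22 genes of glutathione synthesis and recycling and of NADPH supply, 3 fell and 1 rose, or 18.2% called, near the 19.3% of all genes, and the median was -0.09, or -0.11 without vehicle replicate 3. The 3 were glutathione peroxidases, which reduce peroxides at the cost of glutathione. Gpx1 had 816, 852 and 680 CPM with vehicle and 496, 537 and 548 CPM with CR-31 (log2 fold change -0.57 ± 0.21, adjusted p = 0.205). Gpx2, the gastrointestinal form, had a log2 fold change of -0.52 and Gpx4, which acts on lipid peroxides, one of -0.53, with a ratio of -0.07 in pair 3. Slc7a11, the cystine importer that feeds glutathione synthesis, rose, from 102, 140 and 90.4 CPM to 132, 231 and 103 CPM, a log2 fold change of 0.43 ± 0.17 (adjusted p = 0.220). Of 22 glutathione S-transferases, 5 fell and 0 rose, or 22.7% called, also near that share, with a median of -0.26, or -0.23 without vehicle replicate 3. Gstm4 had 26.7, 41.4 and 23.9 CPM with vehicle and 19.4, 23.5 and 20.3 CPM with CR-31 (log2 fold change -0.51 ± 0.16, adjusted p = 0.192). Gstm3 fell by 0.50 and Gstm2 by 0.42. Gstp1 and Gstp2, a pair of near-identical genes whose reads can be split between them, fell by 0.48 and 0.46, and in both the ratio in pair 3 was 0.02.

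In glycolysis and glucose transport, 2 of 20 genes rose and 4 fell, beside 8.3% and 11.1% of all genes, with a median of -0.14, or -0.17 without vehicle replicate 3. Besides Hk2, the gene that rose was Pfkfb3, whose product makes the activator of phosphofructokinase, from 15.3, 17.2 and 14.9 CPM to 23.9, 43.7 and 21.2 CPM, a log2 fold change of 0.83 ± 0.31 (adjusted p = 0.204). Gapdh had 1552, 1561 and 1279 CPM with vehicle and 1192, 825 and 1137 CPM with CR-31. Every CR-31 library was below every vehicle library, and the log2 fold change was -0.49 ± 0.18 (adjusted p = 0.204). Slc16a3, a lactate exporter, had a log2 fold change of -0.42 ± 0.18 (adjusted p = 0.243). Slc2a1, the widespread glucose transporter, did not pass, at 0.19 ± 0.21 (adjusted p = 0.633), nor did Eno3, at -0.25 ± 0.22 (adjusted p = 0.532).

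Slc2a6, a glucose transporter, and Eno2, the neuronal enolase, fell by the test but on few reads, and the library with leukocyte RNA was their highest. Slc2a6 had 27, 8 and 136 counts with vehicle and 4, 4 and 10 with CR-31. The groups overlapped, since vehicle replicate 2 lay below CR-31 replicate 3, and the ratio was lower in 3 of 3 pairs, at -1.78, -1.26 and -3.93. The log2 fold change was -2.83 ± 0.58 (adjusted p = 0.192), and -1.59 without vehicle replicate 3. Eno2 had 0.235, 0.256 and 1.09 CPM with vehicle and 0.242, 0.0951 and 0.211 CPM with CR-31, with pair ratios of 0.05, -1.39 and -2.34. Its log2 fold change was -1.25 ± 0.46 (adjusted p = 0.201), and -0.53 without vehicle replicate 3. In that library the 12 pan-leukocyte markers were at 47.4 CPM, and the part of this RNA in either value was not tested. Of the 165 entries that stood apart in vehicle replicate 3, 20 were tested and 13 of these fell, a count their choice brings about. Slc2a6 was 1 of them, and so were Vim, Csf1r, the receptor of macrophage growth factor, and Coro1a, a coronin of leukocytes. Coro1a had 0.77, 0.16 and 11.3 CPM with vehicle and 0.50, 0.07 and 0.70 CPM with CR-31, and its log2 fold change was -2.14 with the library and -0.76 without it. Mpeg1, a macrophage gene at 14.7 CPM in that library and under 1 CPM in the others, was at -3.16 ± 1.56 with the library and 0.61 without it, and did not pass (adjusted p = 0.288).

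**Figure D3:**
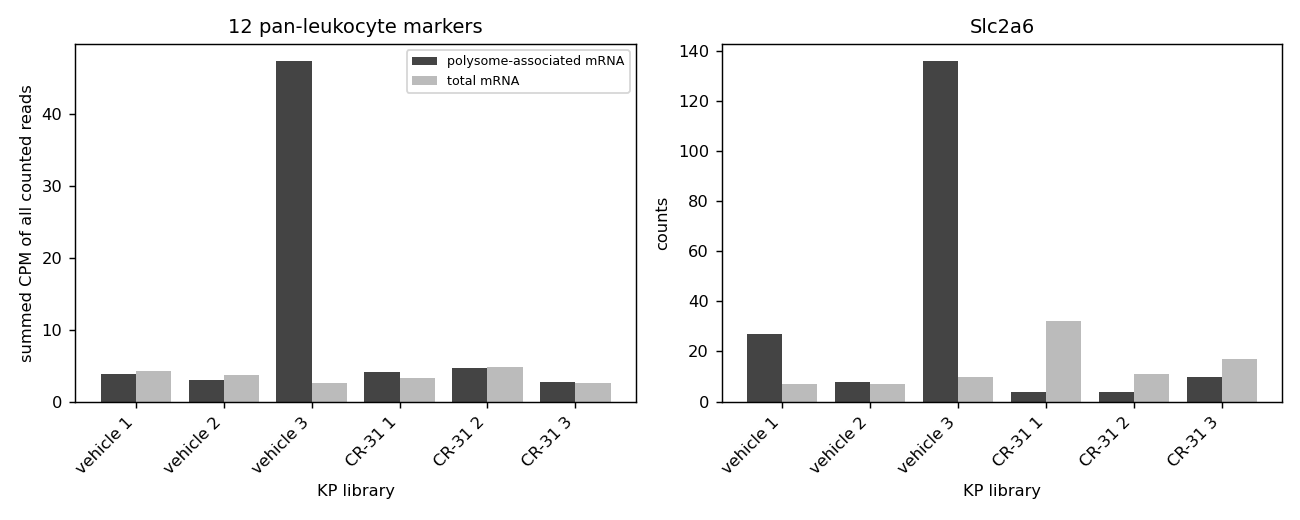
The summed level of 12 pan-leukocyte markers (left, CPM of all counted reads) and the counts of Slc2a6 (right) are plotted as bars from 0 for the polysome and total mRNA libraries of each KP replicate. The polysome library of vehicle replicate 3 is the highest in both panels, at 47.4 CPM and 136 counts, while its total mRNA is at 2.55 CPM and 10 counts.

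Of 16 genes of glutamine transport and use, 4 rose, 1 fell and 11 did not pass, with a median of 0.06, or 0.16 without vehicle replicate 3, beside 8.3% higher and 11.1% lower over all genes. Acly, which makes cytosolic acetyl-CoA from citrate, had 161, 168 and 200 CPM with vehicle and 286, 329 and 317 CPM with CR-31 (log2 fold change 0.82 ± 0.27, adjusted p = 0.193). Ogdh, of the tricarboxylic acid cycle, rose by 0.71 and Slc38a2, a glutamine transporter, by 0.46. Slc7a5, which exchanges glutamine for leucine, fell, from 240, 486 and 280 CPM to 204, 254 and 254 CPM, a log2 fold change of -0.43 ± 0.18 (adjusted p = 0.239). Slc1a5, the main glutamine importer, was at 0.36 ± 0.20 and did not pass (adjusted p = 0.338), although it was higher in 3 of 3 pairs, from 73.9, 166 and 134 CPM to 114, 201 and 153 CPM.

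The genes of mitosis and the spindle had the largest share of members that rose among lists of over 20 genes, with the extracellular matrix list next to it. Of 26 tested, 11 rose and 1 fell, beside 8.3% and 11.1% of all genes, with a median of 0.31. Without vehicle replicate 3 the median was 0.42. In that fit 12 were higher at an unadjusted p under 0.05 in edgeR's test, beside 7.67% of all genes. Anln, the cytokinesis scaffold anillin, had 25.7, 13.8 and 34.4 CPM with vehicle and 65.0, 50.8 and 54.4 CPM with CR-31 (log2 fold change 1.29 ± 0.34, adjusted p = 0.192), or 2.45-fold. The others that rose were Tpx2, the kinesins Kif4, Kif11 and Kif23, the checkpoint kinases Bub1, Bub1b and Ttk, and Incenp, Mki67 and Top2a, at 0.51 to 0.90 besides Tpx2. Cenpa, the histone H3 variant of centromeres, fell by 0.39, and its coding sequence of 405 nt is short beside the list's median of 2366 nt. Among 30 DNA replication genes 5 rose and 3 fell, the latter near the share of all genes, with a median of 0.14, or 0.22 without vehicle replicate 3. Cdc6, which loads the replicative helicase, had 19.6, 12 and 21.7 CPM with vehicle and 35.2, 25.4 and 33.7 CPM with CR-31 (log2 fold change 0.85 ± 0.26, adjusted p = 0.192). Mcm4, a subunit of that helicase, rose by 0.82, Rrm1, the large subunit of ribonucleotide reductase, by 0.83, and Mcm7 and Pole by 0.69 and 0.52. Cdt1, the partner of Cdc6, fell by 0.48, and the clamp loader subunits Rfc5 and Rfc2 fell by 0.44 and 0.32.

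Genes of the extracellular matrix and its receptors rose in 11 of 27 cases (40.7%, beside 8.3% of all genes) and fell in 0, with a median of 0.28. Without vehicle replicate 3 the median was 0.34. In that fit 10 were higher at an unadjusted p under 0.05 in edgeR's test, beside 7.67% of all genes. Itga2, the collagen-binding integrin chain, had 9.35, 16.1 and 9.66 CPM with vehicle and 18.9, 45.7 and 15.3 CPM with CR-31. It was higher in 3 of 3 pairs and most in pair 2, at a log2 fold change of 1.07 ± 0.21 (adjusted p = 0.192). Its partner Itgb1 rose by 0.82, and Itga6, Itgav and Itgb6 by 0.50, 0.45 and 0.35. The laminin chains Lamb1 and Lamc1 rose by 0.59 and 0.51, Thbs1 by 0.72, and talin and vinculin, which tie integrins to actin, by 0.80 (Tln1) and 0.40 (Vcl). Fn1, fibronectin, differed most between replicates, with 4.63, 7.30 and 51.4 CPM with vehicle and 7.56, 23.9 and 82.6 CPM with CR-31, and rose by 1.03 ± 0.29 with the pair as a block (adjusted p = 0.192). Without the block and without CR-31 replicate 3 its value was -0.43.

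Of 47 chromatin regulators, 15 rose, 0 fell and 32 did not pass, with a median of 0.23, or 0.34 without vehicle replicate 3. Of 332 numbered zinc finger proteins 68 rose, 19 fell and 245 did not pass, with a median of 0.24, or 0.30 without vehicle replicate 3, where 8.3% of all genes rose and 11.1% fell. Chd4, the remodelling ATPase of the NuRD complex, had 81.0, 54.4 and 79.2 CPM with vehicle and 127, 139 and 119 CPM with CR-31 without overlap (log2 fold change 0.86 ± 0.23, adjusted p = 0.192). Atrx, a remodeller of heterochromatin, had 15.4, 11.6 and 12.6 CPM with vehicle and 23.3, 26.3 and 19.8 CPM with CR-31 (log2 fold change 0.81 ± 0.26, adjusted p = 0.192). Jmjd1c, Kdm5a, Kdm5b, Kdm6a and Kdm2a, all of demethylase families, rose by 0.47 to 0.84, and the acetyltransferase Ep300 by 0.57. Zfp11, one of the zinc finger genes, had 2.31, 2.15 and 2.66 CPM with vehicle and 4.62, 4.75 and 4.65 CPM with CR-31, at a change of 0.98 ± 0.19 (adjusted p = 0.192). Zfp358 and Zfp523 fell, by 0.53 and 0.54.

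Transcription factors of the immediate early response had the highest median of all 23 lists, 0.45, but only 2 of 27 rose and 1 fell, or 11.1% called, under the 19.3% of all genes, and the median without vehicle replicate 3 was 0.54. Fosl2, an AP-1 subunit, had 27.3, 37.3 and 39.2 CPM with vehicle and 39.6, 82.0 and 52.7 CPM with CR-31 (log2 fold change 0.70 ± 0.24, adjusted p = 0.195). Myc had 84.2, 118 and 112 CPM with vehicle and 131, 195 and 144 CPM with CR-31 (log2 fold change 0.58 ± 0.22, adjusted p = 0.210), without overlap between groups. Jund fell by 0.47. In the fit of all polysome libraries the spread of this list also comes from N replicate 3, where its median ratio was -2.50, against 0.58 and 0.12 in N replicates 1 and 2. In the fit of KP libraries without vehicle replicate 3, 20 of the 27 were called higher, beside 30.2% of all genes. The total mRNA of the list had a median log2 fold change of 0.66, and Myc one of 0.71.

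In the BCL2 family and the D cyclins 3 of 16 fell and 0 rose, or 18.8% called, near the 19.3% of all genes, with a median of -0.26, or -0.31 without vehicle replicate 3. The 3 were the pore-forming members that promote apoptosis. Bak1 had 312, 376 and 336 CPM with vehicle and 206, 211 and 233 CPM with CR-31. The CR-31 libraries were close together and all below the vehicle libraries, at a log2 fold change of -0.65 ± 0.17 (adjusted p = 0.192). Bax had 755, 799 and 562 CPM with vehicle and 470, 500 and 481 CPM with CR-31 (log2 fold change -0.53 ± 0.17, adjusted p = 0.193), and Bok fell by 0.57. In the p53 pathway, to which Bax also belongs, 4 of 24 genes were called (16.7%, under the 19.3% of all genes), with a median of 0.01, or -0.02 without vehicle replicate 3. Mdm2, the ligase that degrades p53, rose by 0.41 and Tnfrsf10b, a death receptor, by 0.38, and Phlda3 was just past the threshold at -0.35. Of 20 genes of the integrated stress and unfolded protein responses, 4 fell and 0 rose, again near the share of all genes, with a median of -0.09, or -0.06 without vehicle replicate 3. Atf5, a stress-induced transcription factor, had 150, 459 and 351 CPM with vehicle and 105, 241 and 246 CPM with CR-31, at -0.65 ± 0.25 (adjusted p = 0.213), and Xbp1, Trib3 and Sdf2l1 fell by 0.44, 0.60 and 0.43. Of the NF-kB list 1 of 16 rose, Birc3 by 0.42, and 1 fell, Relb by 0.45, or 12.5% called, with a median of 0.17, or 0.28 without vehicle replicate 3.

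Of 24 cytosolic chaperones, 2 rose and 0 fell, a share like the 8.3% of all genes that rose. Hsph1 rose by 0.89 ± 0.33 (adjusted p = 0.207) and Hspa4l by 0.54, both nucleotide exchange factors of the Hsp70 system, and 21 of the 24 had a value above 0, with a median of 0.23, or 0.33 without vehicle replicate 3. Of 30 proteasome subunits, 1 rose and 3 fell, or 13.3% called, under the 19.3% of all genes, with a median of -0.04, or -0.07 without vehicle replicate 3. The 1 was Psmd14, the deubiquitinating subunit of the lid, from 94.4, 76.7 and 88.6 CPM to 156, 127 and 132 CPM at 0.68 ± 0.27 (adjusted p = 0.225), and Psmd13, Psmb5 and Psmb3 fell by 0.47, 0.49 and 0.49. In cholesterol synthesis, the squalene epoxidase Sqle rose by 0.69, while Mvk, Mvd and Pmvk of the mevalonate steps fell by 0.60, 0.45 and 0.34, out of 21 tested, a share near that of all genes, with a median of 0.05, or 0.08 without vehicle replicate 3. Of 11 mucin, trefoil and gastric genes 1 rose, the aspartic protease Ctse, at under 2 CPM in all 6 libraries, or 9.09% beside 8.3% of all genes, and the median was 0.04, or 0.20 without vehicle replicate 3. Of 12 markers of duct epithelium 3 rose and 2 fell, or 41.7% called beside 19.3% of all genes, with a median of -0.00, or 0.03 without vehicle replicate 3.

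**Figure D4:**
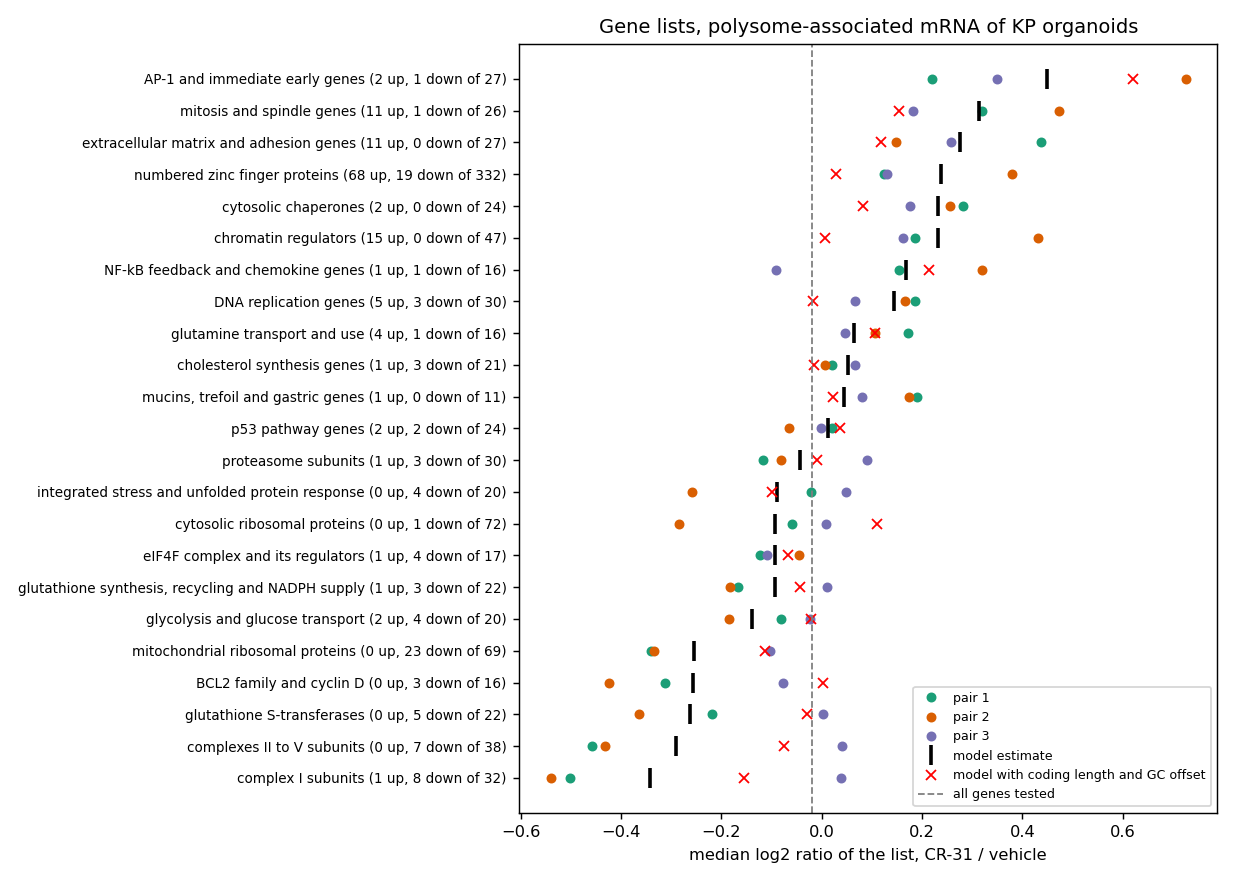
The median log2 ratio of CR-31 to vehicle is plotted on the horizontal axis for 23 gene lists, with the number of genes that rose and fell in brackets. Coloured dots are the 3 pairs, black marks the model, red crosses the model after an offset for coding length and GC3, and the dashed line is the median of all 11438 genes; respiratory chain lists lie at the bottom with pair 3 near 0, and with the offset most lists lie nearer to the dashed line.

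The genes that rose and fell differed in their coding sequences. The median coding length was 2493 nt (interquartile range 1699 to 3719) among genes that rose and 978 nt (609 to 1416) among those that fell, against 1398 nt over all genes. The median GC3 was 51.3% among genes that rose, 69.4% among those that fell and 61.0% over all. GC3 is the share of codons that end in G or C, and varies with codon choice and base composition of the locus. When the genes were split by GC3 into 10 groups of equal size, 19% rose and 0.27% fell in the group with the lowest values. In the group with the highest, 0.898% rose and 26.7% fell. Between the same groups the median ratio went from 0.18 to -0.29 in pair 1, from 0.35 to -0.41 in pair 2 and from 0.16 to -0.14 in pair 3, so that the order was shared by all 3 pairs. Split by coding length in the same way, the group of shortest genes had medians of -0.32, -0.30 and -0.09 in pairs 1, 2 and 3 and the group of longest genes 0.19, 0.36 and 0.10. With the calls of KP libraries without vehicle replicate 3, the medians were 2019 nt and 52.4% for the genes higher and 981 nt and 67.7% for those lower.

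**Figure D5:**
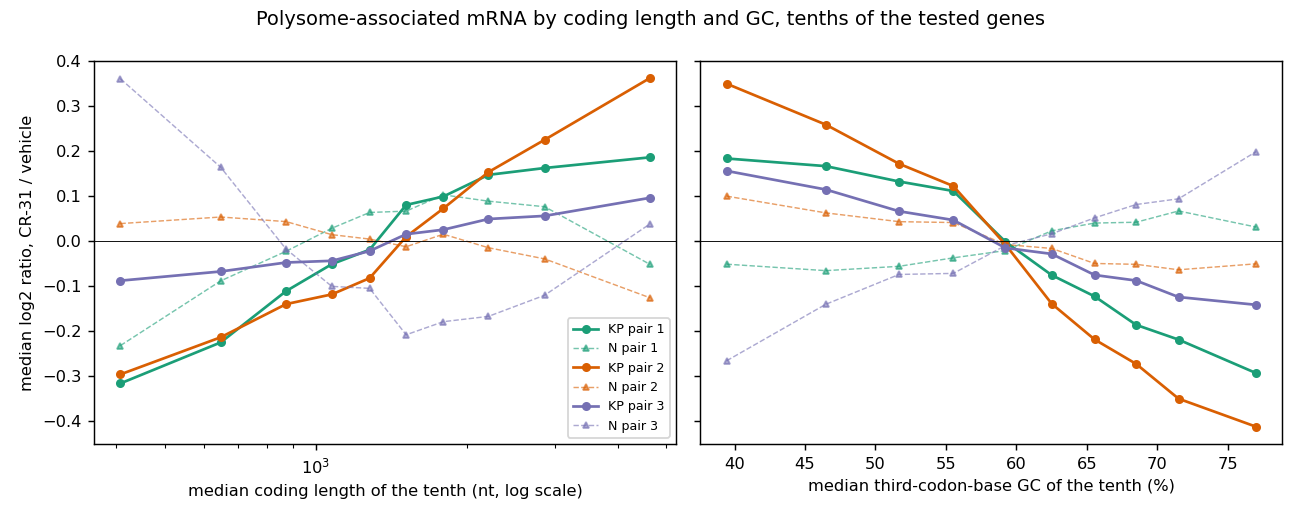
The median log2 ratio of CR-31 to vehicle in polysome-associated mRNA is plotted for 10 groups of equal size of the tested genes by coding length (left, log axis) and by GC3 (right), in each pair of KP (solid) and N (dashed) organoids. All 3 KP pairs go up with length and down with GC, while N pairs 1, 2 and 3 do not share 1 direction.

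The gene lists differed in these features. Complex I subunits had a median coding length of 495 nt, and chromatin regulators one of 6168 nt, while zinc finger proteins had a median GC3 of 48.1%. After an offset for the trend of each library on coding length and GC3, an alternative chosen after the data were seen, edgeR called 0 of 11124 genes at an adjusted p under 0.25, and 1328 had an unadjusted p under 0.05. Of the genes that rose, 915 of 934 with a value stayed above 0, with a median of 0.33, and of those that fell 1193 of 1207 stayed below 0, with a median of -0.30. The median of complex I went to -0.15, that of complexes II to V to -0.08, that of chromatin regulators to 0.01 and that of zinc finger proteins to 0.03, while the immediate early list went to 0.62. The part of coding length and base composition in the effect of CR-31 was not tested, since a response of such mRNAs to the drug and a difference between libraries in the recovery of such mRNAs cannot be told apart here. In N organoids the correlation of the ratio with GC3 across genes was 0.137, -0.180 and 0.167 in pairs 1, 2 and 3, against -0.421, -0.506 and -0.351 in KP, all Spearman's rho as a description. In the total mRNA of KP it was 0.590, -0.357 and -0.034, so that total mRNA in pair 1 had the opposite direction to polysome-associated mRNA.

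Total mRNA of the same lysates addressed whether these shares followed mRNA abundance. In total mRNA edgeR called 0 genes at an adjusted p under 0.25, with a lowest value of 0.416, and 580 had an unadjusted p under 0.05. The median total log2 fold change was 0.05 over the genes that rose in polysomes and 0.06 over those that fell. Higher total mRNA was found at an unadjusted p under 0.05 in 112 of the 949 genes that rose, and lower total mRNA in 3 of the 1264 that fell. The 580 of all genes were not split by direction, so no like share stands beside these counts. The total log2 fold change was above 0 in 545 of the 949, beside 51.8% of all genes. It was below 0 in 325 of the 1264, beside 48.2%. Among single genes the relation varied. Acly, Ogdh and Cdc6 had total log2 fold changes of 0.69, 0.73 and 0.83, close to their polysome values of 0.82, 0.71 and 0.85. Atrx was at -0.18 in total mRNA with 0.81 in polysomes, and Cyc1, Bak1 and Eif4ebp1 were at -0.01, 0.09 and -0.07 in total mRNA with -0.67, -0.65 and -0.74 in polysomes.

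The difference between the polysome and the total change, tested as the interaction of fraction and treatment in 1 edgeR model of all 24 libraries, called 0 genes at an adjusted p under 0.25, with a lowest value of 0.567 and 611 genes at an unadjusted p under 0.05. The median of this difference was 0.57 over the genes that rose in polysomes and -0.49 over those that fell, where the polysome values are part of both. It was positive at an unadjusted p under 0.05 for 192 of the former and negative for 265 of the latter. The 611 over all genes were likewise not split by direction. In this difference between the polysome and the total change Atrx was at 1.06, Peg3 at 1.15, Cyc1 at -0.59 and Gpx1 at -0.56, and Myc was at -0.07. Without replicate 3 of N organoids the same test called 5272 genes.

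In N organoids the genes of this comparison did not show a like change in all pairs. Over the genes that rose in KP, the median ratio was 0.17, 0.16 and -0.38 in N pairs 1, 2 and 3, and over those that fell it was -0.00, -0.09 and 0.25. The difference of the effect of CR-31 between KP and N, tested as an interaction in edgeR, called 0 genes, with a lowest adjusted p of 0.346 and 1623 genes at an unadjusted p under 0.05, so a difference between KP and N was not shown for single genes at this threshold. Of the called genes of KP, 1125 had an unadjusted p under 0.05 for this difference in the direction of their change, with the KP libraries part of both values. Without N replicate 3, 3088 genes were called to differ. Cyc1 was at -0.18 ± 0.16 in N against -0.67 in KP, with N pairs at -0.19, -0.22 and -0.14. Aifm1 was at 0.16 ± 0.37 in N against 1.20 in KP, but its N pairs were at 0.82, 0.84 and -1.31, so that N replicate 3 alone was lower.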

How the data were processed

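The members, gene lists and named genes were chosen with earlier results of these data known. Reads were aligned by the authors with HISAT2, multiply mapping reads were discarded, and reads were counted on coding RefSeq transcripts. The methods and the submitters' processing notes name a human genome build, while the genes of the table are mouse, so no genome positions are given. The authors deposited raw counts per gene and library, with replicates not pooled, and RPKM values, also deposited by the authors and not used here. Of 19895 entries, 1042 listing several symbols, of which 752 had counts in every library, and the entries of 136 symbols occurring more than once were left out. The 11438 genes with a count above 0 in all 24 libraries were tested. Discarding multiply mapping reads lowers the counts of genes that have close copies.

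Counts of the 12 polysome libraries were scaled by TMM and tested with edgeR 4.0.16 (R 4.3.3) by the quasi-likelihood test, with the replicate number within organoid type as a block and Benjamini-Hochberg adjustment over all genes. The threshold was 0.25, as in the study, and the fit had 4 residual degrees of freedom. Adjusted p-values in the text are from this test unless a sentence names another. Same-numbered vehicle and CR-31 libraries of KP deviated together from their group means (r of 0.796, 0.752 and 0.723 across genes in replicates 1, 2 and 3), and the pairing rests on the numbers of the labels and on this check. Replicate libraries differed far beyond counting error. CPM are of TMM-scaled library sizes, and marker sums are CPM of all counted reads. Pair ratios used a prior count of 0.5. Alternatives included DESeq2 1.42.0. The test was checked on simulated data. Figures were drawn with matplotlib 3.10.9 in Python 3.11.15.

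Named genes were, first, among called genes with 1 sign in all 3 pairs and a mean of 5 CPM or more over the 6 libraries, the 15 higher and 15 lower with the largest smallest pair ratio. Then came up to 2 called members in each direction of each of 23 gene lists, or the highest expressed one, the genes the study names, and the leading markers of a library that stands apart. Other genes named were chosen after their values were seen, most of them as further called members of a list. Some genes that the rule names are not reported here. Lists were described by counts and medians without a test. Coding sequences were taken from GENCODE M21 (GRCm38), the longest complete one of each gene, for 97.3% of tested genes. Motifs after the transcript start were not analysed, since the promoter table matched 77.4% of tested genes, too few for the check. The sequencing lanes named in the labels split pair 2, while pairs 1 and 3 were each within a lane.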

Additional observations from a re-analysis of the deposited data

How the results depend on the processing

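Against 2213 genes called (949 higher, 1264 lower), RLE scaling gave 2170, upper-quartile scaling 2091, filterByExpr 1849 and DESeq2 2649. Without a filter on low counts 1448 were called, with 741 lower. The fit of KP libraries alone called 6117 (3093 higher, 3024 lower), and that without N replicate 3 called 6276 (2906 higher, 3370 lower). The count was 0 in both directions without the replicate block (406 genes at an unadjusted p under 0.05), with the sequencing lane beside the block (252), with the coding length and GC offset (1328) and at an adjusted p under 0.05. The lane term takes up the contrast of pair 2, the only KP pair split between lanes. Leaving out 1 pair of KP, or vehicle replicate 3, with the block and N in the fit gave 0 to 1 genes called (0 higher, 0 to 1 lower). Leaving out single libraries was run without the block, which alone gives 0, so its 0 says nothing of the library. The count was 6654 (3451 higher, 3203 lower) in KP alone without vehicle replicate 3. The cause of these differences was not tested. In total mRNA 0 genes were called under each alternative run. Without N replicate 3, 5272 genes were called in translational efficiency and 3088 in KP against N, where the other alternatives gave 0. Of 2099 values of 100 named genes under alternatives, 4 of called genes changed sign, namely Mdfi without the block and without vehicle replicate 2 (0.041), Fn1 without the block and without CR-31 replicate 3 (-0.43), and Rpl36 and Phlda3 with the offset (0.078 and 0.15), and 1241 kept their sign but did not pass the threshold. Of the 7 named genes that were not called, 10 of 147 values changed sign, among them Mpeg1 (0.61) and Lcp1 (0.37) without vehicle replicate 3. Many of these genes were chosen for 1 sign in all pairs, so the few changes of sign are no sign of stability. Of 483 list medians, 418 moved by less than 1 SD between pairs. That SD is wide where pair 3 differs from pairs 1 and 2, so this count is no sign of stability. For complex I it was 0.32, while the median went from -0.34 to -0.15 with the offset. Depth limits genes under 1 CPM, such as Slc2a6 and Eno2.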
